A study of Arabidopsis thaliana with 14 samples.

Results

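Roots that carry a mutated NIP5;1 were compared after 2 days at 0.3 µM boron (low) and after 2 days at 100 µM boron (sufficient). The members are 8 of the 14 arrays of the series: 4 of its 7 genotypes, chosen by their labels, each with 1 array at low and 1 at sufficient boron. The first genotype, nip5;1, is called the single mutant here. The other 3 carry a second lesion (nip5;1 bor1, then nip5;1 bor2, then nip5;1 nip6;1) and are called the bor1, bor2 and nip6;1 doubles, and all together are the 4 mutants. The other 6 arrays, from wild type, bor1 and bor2 at both levels, serve as the 3 intact genotypes. All plants were Arabidopsis thaliana of the Col-0 ecotype, sampled as roots at 12 days of age, after 10 days on 100 µM boron and then 2 days of treatment. Per the labels, growth of the single mutant is inhibited at boron levels under 10 µM, and that of the doubles to a similar extent. The labels name no number of plants behind an array.

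Boron crosslinks rhamnogalacturonan II, a pectic polysaccharide, and so holds the primary cell wall together. NIP5;1 is the boric acid channel through which roots take up boron when it is scarce, NIP6;1 is its relative in young shoot tissue, and BOR1 and BOR2 export borate, toward the xylem and into the wall. A root without the channel therefore meets a shortage at boron levels that intact roots tolerate, and the cell wall is the part of the cell in which boron is known to act. No probe set could be tied by name to any of these 4 genes, and the genotypes themselves were not checked here.

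Values are MAS5 signals on a linear scale. A response is the log2 signal at 0.3 µM minus the log2 signal at 100 µM, fitted over genotypes, with its standard error (SE) and with p adjusted over all probe sets tested (limma, Benjamini-Hochberg). Where 4 values follow each other, they belong to the single mutant and the bor1, bor2 and nip6;1 doubles, in that order. Since each genotype and level has 1 array, p-values measure the spread of the response between genotypes, and a single genotype's ratio is unreplicated.

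Low boron moved 706 of 13648 tested probe sets in the 4 mutants past an adjusted p of 0.05, which is 5.17% of those tested. Of these, 389 were higher (2.85%) and 317 lower (2.32%) at low boron. In 703 of the 706 (5.15% of all tested) the 4 pairs moved the same way, 389 up and 314 down (2.3% of all tested). The same sign in 4 pairs alone is common: 3678 of all tested probe sets (26.9%) had it with no threshold. The responses were mostly moderate, with a median of 0.66 among the rises and -0.60 among the falls, against 0.0026 over all tested. Responses of at least 2-fold comprised 94 rises (0.689% of all tested) and 30 falls (0.22%), and 20 rises (0.147%) and 4 falls (0.0293%) reached 4-fold. The 4 low and the 4 sufficient arrays did not overlap for 594 of the called probe sets, a property that 12.1% of all tested probe sets had. A single gene is named for 359 of the called probe sets (4.86% of 7390 such probe sets tested), of which 201 rose and 158 fell, and the descriptions by function rest on those.

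The 3 called falls that did not move the same way were AT5G15180, a class III peroxidase, scpl31, a serine carboxypeptidase-like protein, and AT3G21680 (named after their values were seen, because they are so few). Their odd genotype showed almost no change, with a log2 ratio of 0.06 for AT5G15180 and 0.03 for AT3G21680 in the bor2 double and 0.0060 for scpl31 in the nip6;1 double.

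Measures of RNA quality differed between the boron levels in most pairs. The 3′ to 5′ ratio of the GAPDH control probe sets averaged 1.61 ± 0.16 at low and 1.36 ± 0.152 at sufficient boron in the 4 mutants (SD, n = 4 each) and was higher at low boron in 3 of 4 pairs. The actin ratio was 15.5 ± 3.95 at low and 11.5 ± 1.15 at sufficient boron, again higher in 3 of 4 pairs. With the GAPDH ratio in the fit 228 probe sets were called, 217 of them among the 706, and with the actin ratio 418, 356 of them among the 706. Its part in single responses was not tested beyond these fits. The 2 named root markers, PYK10 and EXPA7, summed to 18369 to 19966 units at low and 17594 to 20656 units at sufficient boron, and neither passed the test (-0.03 and 0.18, adjusted p = 0.86 and 0.419). The 2 leaf markers, RCA and LHCB4.1, summed to 939 to 1932 units at low and 1294 to 2283 units at sufficient boron.

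The largest response of any named gene was that of AT3G53400, a gene of no role given here. Its signal was 3767, 3377, 3226 and 3742 at 0.3 µM, against 165, 184, 154 and 140 at 100 µM. Every low array stood far above every sufficient one, a 22.0-fold response (log2 4.46, SE 0.12, adjusted p = 8.12e-09). CPUORF47, named for a conserved peptide encoded upstream in its transcript, read 938, 984, 1006 and 1163 at 0.3 µM, against 97.2, 102, 77.4 and 80.4 at 100 µM. It rose 11.5-fold (log2 3.52, SE 0.14, adjusted p = 4.73e-07), and the 4 genotypes lay within 3.27 to 3.85 on the log2 scale. Both genes also rose in the intact genotypes, by 3.59 (adjusted p = 3.98e-07) and 2.60 (adjusted p = 4.10e-05), and for neither did the difference between the classes pass the test (adjusted p = 0.134 and 0.2).

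AT5G22580, a protein with a stress-responsive A/B barrel domain, had 1918, 2322, 1461 and 1810 units at 0.3 µM, against 177, 245, 146 and 67.3 at 100 µM. It rose 12.9-fold (log2 3.69, SE 0.29, adjusted p = 7.07e-05). The nip6;1 double gave the highest ratio, 4.75, with the lowest signal at sufficient boron and a signal at low boron within the range of the others. AT5G52390, a PAR1-type protein, read 264, 373, 145 and 434 at 0.3 µM, against 33.5, 23.9, 57.2 and 26.2 at 100 µM (log2 3.08, SE 0.40, adjusted p = 0.0018). Its ratio was 1.34 in the bor2 double and 2.98 to 4.05 in the other 3 mutants.

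**Figure D1:**
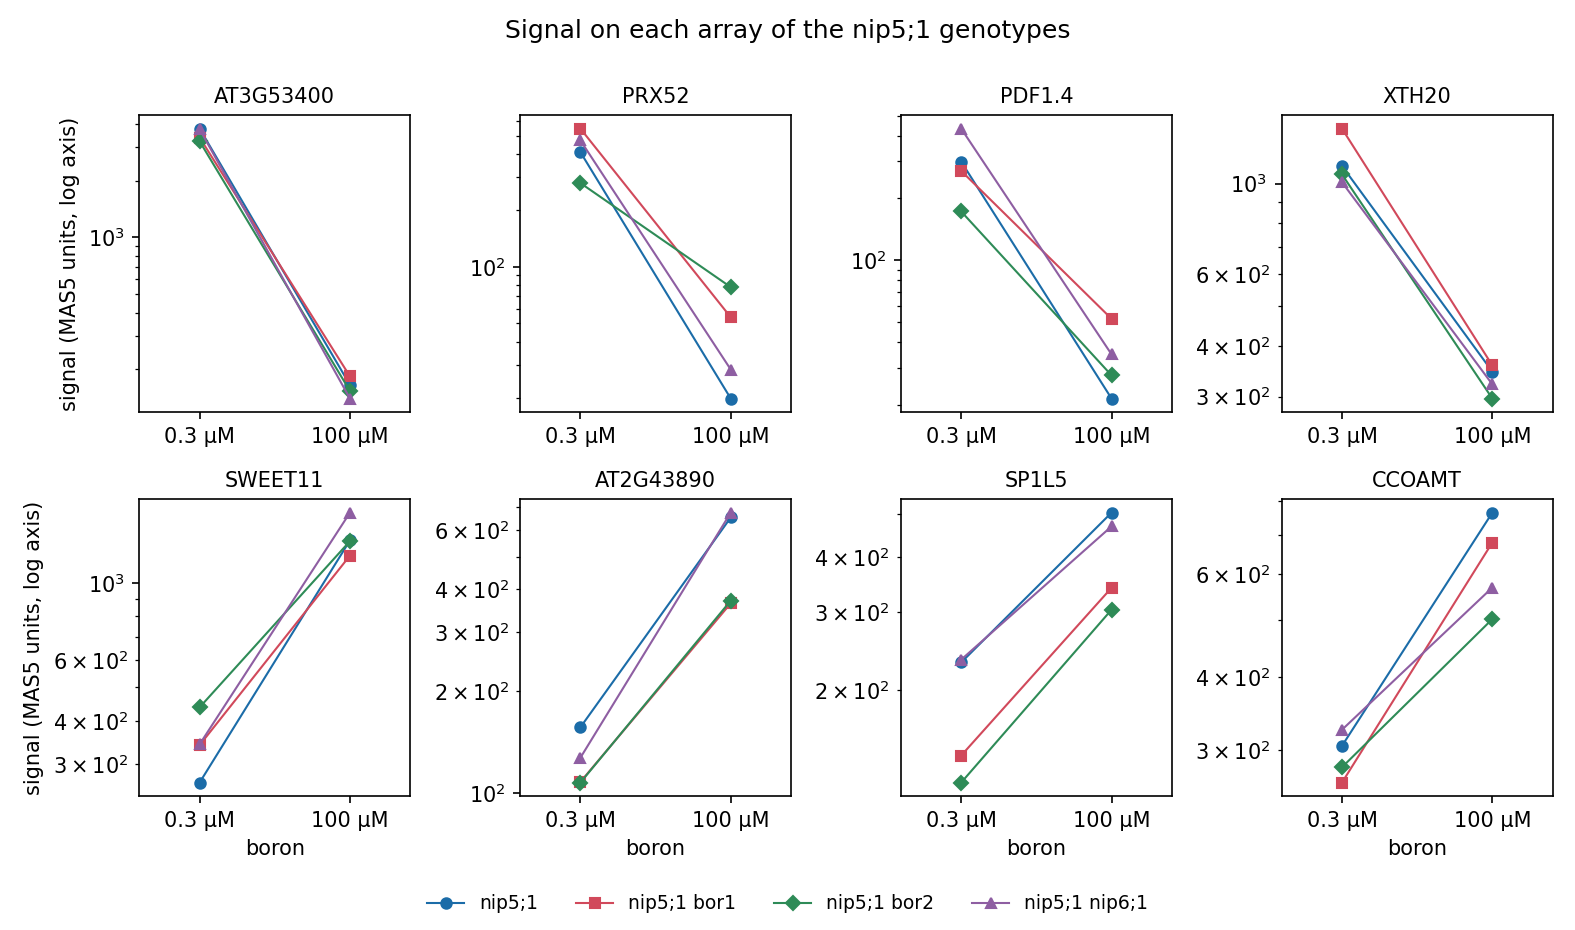
Signals in MAS5 units (log axis, scale differs by panel) of 8 genes on the 8 arrays of the 4 mutants, with 0.3 µM boron left and 100 µM right. Each line joins the 2 arrays of a genotype. AT3G53400, PRX52, PDF1.4 and XTH20 are higher at 0.3 µM and SWEET11, AT2G43890, SP1L5 and CCOAMT higher at 100 µM, with no overlap in any of the 8.

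Class III peroxidases are secreted enzymes that use hydrogen peroxide to couple phenolics in the wall and can also release radicals that loosen it. Of 40 tested peroxidases, 12 rose and 3 fell (37.5% called, median response 0.18, against 5.17% and 0.0026 over all tested). The gene lists here and below were chosen with earlier results of these data known, some after calls had been seen. Their called shares are therefore descriptions and no findings. PRX52, a peroxidase linked to lignin formation, had 408, 545, 280 and 472 units at 0.3 µM, against 19.9, 53.9, 78.0 and 28.4 at 100 µM. The groups were far apart (log2 3.40, SE 0.44, adjusted p = 0.00171), but the ratio ran from 1.84 in the bor2 double to 4.35 in the single mutant, where the sufficient signal lay at the floor of 20 units and bounds it from below. PRX52 was among the 4 most uneven of the strongly responding genes.

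AT5G06730 gave 421, 475, 309 and 437 units at 0.3 µM, against 122, 116, 83.5 and 79.4 at 100 µM (log2 2.04, SE 0.15, adjusted p = 4.83e-05). AT4G36430 had 4594, 5349, 2637 and 5277 units at 0.3 µM, against 1402, 1668, 1106 and 1335 at 100 µM, with no overlap (log2 1.66, SE 0.16, adjusted p = 0.000372). Prx37 rose by 1.09 (adjusted p = 0.00646), AT1G34510 by 0.76 (adjusted p = 0.0139) and AT1G44970 by 0.67 (adjusted p = 0.0207). For AT1G34510 the bor2 double had the highest ratio (1.41, against 0.46 to 0.60 in the other 3). The count of the family depended on single genotypes: it was 6 rises and 3 falls without the bor2 double, 5 and 1 without the nip6;1 double, 7 and 1 without either the bor1 double or the single mutant, and 3 and 1 with the GAPDH ratio in the fit.

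Dirigent proteins guide the coupling of monolignols, and of 8 tested (50% called, median -0.13) 2 rose (AT1G55210 by 0.76, adjusted p = 0.00103, and AT2G21100 by 0.64, adjusted p = 0.00917) and 2 fell (AT4G11210, log2 response -0.95, adjusted p = 0.00835, and AT4G11190, -0.54, adjusted p = 0.0352). Both falls were lost without the bor1 double, where 1 rise was counted, and without the nip6;1 double, where 2 were, and the count was 1 and 1 with the GAPDH ratio in the fit. AT1G30760, a berberine bridge enzyme-like oxidase, read 361, 428, 409 and 528 at 0.3 µM, against 87.4, 137, 134 and 173 at 100 µM (log2 1.73, SE 0.21, adjusted p = 0.0014), while AT5G44410 of the same family of 10 fell (-0.67, adjusted p = 0.046). In that family 20% were called. The AT5G44410 call was lost in 5 of the 7 fits that left out a genotype (adjusted p up to 0.212). It was also lost in the mutants alone and with either RNA quality ratio in the fit. CCOAMT, a caffeoyl-CoA O-methyltransferase gene, had 305, 264, 281 and 325 units at 0.3 µM, against 763, 678, 502 and 569 at 100 µM. It fell with no overlap between levels (-1.08, SE 0.25, adjusted p = 0.0314), but its adjusted p reached up to 0.157 when a single genotype was left out.

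Pectin is the polymer that boron crosslinks, and its enzymes were spread over both directions. Pectin methylesterases remove methyl groups from homogalacturonan. Of 16 tested, 5 rose and 1 fell (37.5% called, median 0.33). ATPMEPCRB had 402, 427, 254 and 419 units at 0.3 µM, against 88.9, 111, 126 and 94.5 at 100 µM (log2 1.82, SE 0.31, adjusted p = 0.00678), and its ratio was lowest in the bor2 double (1.02). AT2G47550 read 1105, 1079, 781 and 827 at 0.3 µM, against 404, 406, 381 and 319 at 100 µM (log2 1.32, SE 0.21, adjusted p = 0.00455). AT3G43270, AT5G51490 and AT1G02810 also rose, by 0.58 to 0.76. The count was 3 rises and 1 fall without the single mutant or without the bor1 or nip6;1 double, and 1 and 1 with the GAPDH ratio in the fit. ATPMEPCRD was the one that fell, with 78.1, 85.8, 92.0 and 73.1 units at 0.3 µM, against 201, 210, 157 and 218 at 100 µM (-1.25, SE 0.18, adjusted p = 0.00315).

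The proteins that inhibit these esterases, or resemble such inhibitors, gave 1 rise and 3 falls of 11 tested (36.4% called, median -0.32). AT4G25250 had 505, 648, 802 and 426 units at 0.3 µM, against 1162, 1370, 1194 and 901 at 100 µM (-0.98, SE 0.13, adjusted p = 0.00163). AT5G51520 fell by a similar amount (-0.95, adjusted p = 0.0014), as did AT1G62770 (-0.77, adjusted p = 0.0266), although in AT1G62770 the bor2 double changed little (-0.12). AT5G62350 was the member that rose (0.62, adjusted p = 0.011). Without the single mutant or the bor1 double 2 inhibitor-like genes fell and none rose.

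Pectate and rhamnogalacturonan lyases cut the pectin backbone. Of 14 tested, 5 rose and 2 fell (50% called, median -0.03). AT3G27400, a pectate lyase-like gene, read 198, 306, 105 and 290 at 0.3 µM, against 95.7, 72.5, 65.9 and 61.3 at 100 µM (log2 1.51, SE 0.29, adjusted p = 0.0143). AT3G53190 and AT5G04310 rose by 0.72 each (adjusted p = 0.00238 and 0.0364), AT2G22620, a rhamnogalacturonan lyase, by 0.57 (adjusted p = 0.0273) and AT1G67750 by 0.46 (adjusted p = 0.00967). AT4G24780 was lower at low boron, with 2572, 2928, 2536 and 2772 at 0.3 µM, against 4471, 3547, 3622 and 4246 at 100 µM (-0.55, SE 0.10, adjusted p = 0.0105). Without the nip6;1 double only 1 lyase rose and none fell, without the bor1 double 2 rose and 1 fell, and with the GAPDH ratio in the fit 1 rose.

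Polygalacturonases hydrolyse homogalacturonan, and of 17 tested 1 rose and 4 fell (29.4% called, median -0.10). AT3G15720 had 371, 457, 302 and 446 units at 0.3 µM, against 134, 121, 183 and 125 at 100 µM (log2 1.49, SE 0.21, adjusted p = 0.00238). AT2G43890 went the other way, with 157, 108, 108 and 127 units at 0.3 µM, against 653, 364, 371 and 675 at 100 µM (-2.0, SE 0.25, adjusted p = 0.00154). Of the other called members, AT3G59850, AT3G62110 and AT3G06770 fell by 0.42 to 0.55. Without any 1 of the single mutant, the bor1 double and the nip6;1 double, 1 rose and 2 fell. None of 5 tested pectin acetylesterases passed the test.

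Among proteins that loosen or remodel the wall, rises and falls were evenly split. Expansins let wall polymers slip past each other, and of 13 tested 3 rose and 3 fell (46.2% called, median 0.14). EXPA20 read 674, 924, 748 and 870 at 0.3 µM, against 241, 247, 250 and 220 at 100 µM, with no overlap (log2 1.74, SE 0.15, adjusted p = 0.00012). EXLB1 and EXLA1 rose by 0.76 and 0.44, while EXPB1 and EXPB3 gave -0.83 and -0.82 and EXPA15 gave -0.58. In EXPB1 and EXPA15 the bor2 double moved least, with ratios of -0.26 and -0.14, against -1.05 to -0.94 and -0.76 to -0.70 in the other mutants. Expansins gave 1 rise and 2 falls without the single mutant, 2 and 1 without the bor1 double, and 1 and 2 with the GAPDH ratio in the fit.

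XTH20, which cuts and rejoins xyloglucan chains, gave 1106, 1366, 1054 and 1008 units at 0.3 µM, against 346, 358, 297 and 322 at 100 µM. Its ratios, 1.65 to 1.93, were among the 4 most even of the named responses of at least 2-fold (log2 1.77, SE 0.12, adjusted p = 2.77e-05). XTH21 fell (-0.86, adjusted p = 0.00608), and the other 7 of 9 tested xyloglucan genes did not pass the test (22.2% called). Genes of wall polymer synthesis and acetylation gave 2 rises and 2 falls among 28 tested (14.3%). They were CSLC12, a cellulose synthase-like gene (0.73, adjusted p = 0.0383), 1 of the 2 probe sets of AT2G31110 (0.79, adjusted p = 0.0018, while the other gave 0.49 and missed the test), TBL38 (-0.63, adjusted p = 0.00578) and TBL36 (-0.47, adjusted p = 0.0364). CSLC12 was lost in 5 of the 7 fits that left out a genotype and TBL36 in 3. CSLC12 was also lost with the GAPDH ratio in the fit, and TBL36 with the actin ratio.

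**Figure D2:**
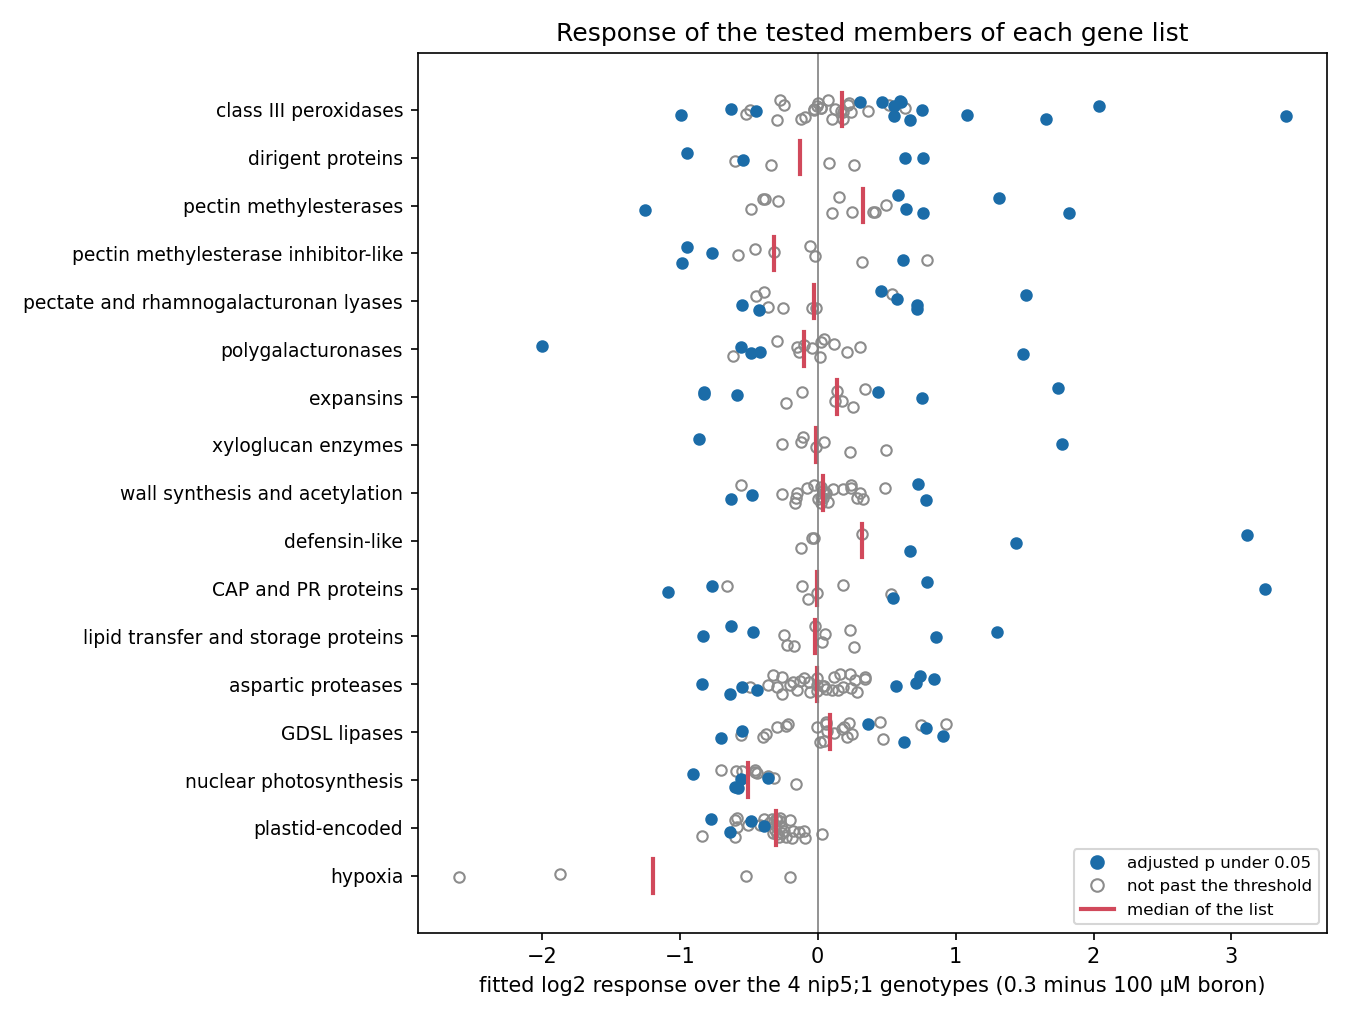
Fitted log2 response over the 4 mutants (x axis, 0.3 minus 100 µM boron) of each tested probe set of 17 gene lists (y axis, with vertical scatter for visibility). Filled points passed an adjusted p of 0.05, open points did not, and the bar is the list's median. Peroxidases, expansins and the pectin lyases hold called genes on both sides of 0, whereas all 5 called nuclear photosynthesis genes and all 4 called plastid genes lie below it.

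Secreted defence-type proteins held some of the strongest rises. Of 7 tested defensin-like genes, which encode small cysteine-rich peptides, 3 rose and none fell (42.9% called, median 0.32, against 5.17% called over all tested). PDF1.4 had 299, 270, 172 and 432 units at 0.3 µM, against 21.4, 52.0, 27.7 and 35 at 100 µM (log2 3.11, SE 0.35, adjusted p = 0.000777). PDF2.1 rose by 1.44 (adjusted p = 0.00183). LCR69 rose less but evenly, with 14253, 16302, 15419 and 14839 units at 0.3 µM, against 8338, 9769, 10656 and 9576 at 100 µM (log2 0.67, SE 0.07, adjusted p = 0.000474). The count of 3 rises and no fall was the same without each genotype in turn and with either RNA quality ratio in the fit.

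AT4G33720, a secreted protein of the CAP (PR-1) type, read 1222, 2326, 729 and 1752 at 0.3 µM, against 218, 79.8, 172 and 150 at 100 µM (log2 3.25, SE 0.40, adjusted p = 0.00131), with a ratio of 4.87 in the bor1 double and 2.08 in the bor2 double. In its family of 11, which gave 3 rises and 2 falls (45.5% called, median -0.01), AT4G25790 and AT4G30320 also rose (0.79 and 0.55), while AT4G31470 (-0.77, adjusted p = 0.0109) and PR-1-LIKE fell. Neither fall was called without the single mutant, the bor1 double or the nip6;1 double, or with either RNA quality ratio in the fit. The rise of AT4G30320 was likewise lost without the bor1, bor2 or nip6;1 double, and with either RNA quality ratio. PR-1-LIKE had 135, 113, 294 and 124 units at 0.3 µM, against 395, 337, 309 and 274 at 100 µM (-1.08, SE 0.23, adjusted p = 0.0227). Its levels overlapped, and the bor2 double had a log2 ratio of -0.07. AT1G33790, a jacalin-type lectin, had 894, 814, 650 and 874 units at 0.3 µM, against 141, 152, 205 and 117 at 100 µM (log2 2.41, SE 0.21, adjusted p = 0.00012), and none of the other 11 tested lectins passed the test.

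Further secreted or lipid-related families were mixed. Of 13 lipid transfer and storage proteins 2 rose and 3 fell (38.5% called, median -0.02), with no fall without the nip6;1 double and no call at all with the GAPDH ratio in the fit. AT2G45180 had 1254, 1004, 1615 and 1367 units at 0.3 µM, against 468, 778, 635 and 329 at 100 µM (log2 1.3, SE 0.21, adjusted p = 0.00544), and its weakest genotype was the bor1 double (0.37). Aspartic proteases gave 4 rises and 4 falls of 38 tested (21.1% called), but 1 and 2 without the bor1 double, 2 and 1 without the nip6;1 double and 3 and 1 without the single mutant. GDSL lipases gave 4 rises and 2 falls of 28 tested (21.4% called), but 2 and 1 without the bor1 double and 1 and 1 without the nip6;1 double or the single mutant. With the GAPDH ratio in the fit the aspartic proteases gave 2 and 1 and the GDSL lipases 1 and 1. Of 15 tested subtilases 1 rose and 1 fell (13.3% called, median 0.13). ARA12, a subtilisin-like protease that acts on the wall, read 1866, 2568, 1826 and 2124 at 0.3 µM, against 1000, 923, 1098 and 945 at 100 µM (log2 1.07, SE 0.12, adjusted p = 0.000664). AT5G45650 fell (-0.69, adjusted p = 0.0332), a call that was lost without wild type or any mutant but the bor2 double. Of 13 chitinases and glucanases (23.1% called, median -0.11), AT1G56680 (1.03, adjusted p = 0.00343) and AT1G32860 (0.84, adjusted p = 0.00234) rose and AT2G27500 (-0.61, adjusted p = 0.0319) fell. The AT2G27500 call was lost without the single mutant, the bor1 double or the nip6;1 double, and with either RNA quality ratio in the fit. AT2G16630, a proline-rich secreted protein of the Ole e 1 type, also rose (log2 1.75, SE 0.19, adjusted p = 0.000685).

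Of 13 tested genes of tubulins, actins and SPIRAL1-type or other microtubule proteins 3 fell and none rose (23.1% called, median -0.15). SPIRAL1-type proteins bind microtubules and keep cell growth straight. SP1L5 had 231, 142, 124 and 235 units at 0.3 µM, against 504, 341, 304 and 470 at 100 µM (-1.17, SE 0.12, adjusted p = 0.000541). SP1L2 fell on average by a similar amount (-0.98, adjusted p = 0.0216) but unevenly, with a ratio of -1.75 in the bor1 double and -0.05 in the bor2 double, and its call was lost without the single mutant, the bor1 double or the nip6;1 double. Of the 5 tested members of this family 40% were called, and the other 3 did not pass. ACT11, an actin, read 416, 398, 489 and 382 at 0.3 µM, against 759, 643, 748 and 573 at 100 µM (-0.69, SE 0.10, adjusted p = 0.00314). Other cytoskeletal genes rose. Of 7 tested TON1 recruiting motif genes (28.6% called, median 0.25), whose proteins bind microtubule arrays, TRM28 (0.92, adjusted p = 0.00667) and TRM19 (0.58, adjusted p = 0.035) rose. The TRM19 call was lost without wild type or any mutant but the bor2 double, and with either RNA quality ratio in the fit. That of TRM28 was lost with the GAPDH ratio. AT3G07540, of the formin family, whose members nucleate actin filaments, had 610, 871, 503 and 799 units at 0.3 µM, against 228, 265, 213 and 216 at 100 µM (log2 1.56, SE 0.15, adjusted p = 0.000371).

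The strongest named falls included genes of transport and metabolism. SWEET11 moves sucrose across membranes. Its signal was 266, 341, 438 and 343 at 0.3 µM, against 1325, 1198, 1318 and 1592 at 100 µM, a 3.95-fold fall (-1.98, SE 0.12, adjusted p = 1.02e-05) with no overlap. The other 3 tested SWEET genes (SWEET2, SWEET16 and SWEET17) did not pass the test, with responses of -0.19, 0.09 and 0.00.

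AT5G04120, of the phosphoglycerate mutase-like family, gave 328, 333, 197 and 357 units at 0.3 µM, against 1930, 1752, 578 and 2280 at 100 µM (-2.29, SE 0.16, adjusted p = 2.77e-05). The bor2 double stood apart at sufficient boron (578), yet its low array was still below all 4 sufficient ones. AT5G62420, an aldo-keto reductase, fell (-1.27, SE 0.23, adjusted p = 0.0112), with ratios of -0.48 in the bor2 double and -2.02 in the nip6;1 double. Its call was lost without the single mutant or the nip6;1 double, and with either RNA quality ratio in the fit. AT1G20823, a RING-type ubiquitin ligase, had the most even response of the named genes that changed at least 2-fold, with ratios of -1.06 to -0.95. It had 145, 175, 146 and 170 units at 0.3 µM, against 286, 359, 304 and 329 at 100 µM (-1.01, SE 0.16, adjusted p = 0.00549).

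The nitrate and peptide transporters of the NPF2 group held 2 falls among 5 tested (40% called, against 5.17% of all tested), AT3G45680 (-0.90, adjusted p = 0.0307) and AT3G45710 (-0.48, adjusted p = 0.0296). Both falls were lost without the single mutant, the bor1 double or the nip6;1 double, and with the actin ratio in the fit. A further transporter of the wider family, AT1G59740, rose (0.87, adjusted p = 0.00637). With the GAPDH ratio in the fit AT3G45710 and AT1G59740 were not called. ZIP9, a zinc transporter gene, read 200, 158, 265 and 96.7 at 0.3 µM, against 113, 92.0, 86.1 and 68.2 at 100 µM (log2 0.93, SE 0.22, adjusted p = 0.0392), with overlapping levels. CCS, the copper chaperone of superoxide dismutase, fell without overlap: 993, 843, 877 and 1050 at 0.3 µM, against 1487, 1485, 1625 and 1558 at 100 µM (-0.71, SE 0.09, adjusted p = 0.00136).

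Only 2 tested probe sets named genes of boron transport and its control. WRKY6, a transcription factor needed for root growth at low boron, had 480, 549, 473 and 439 units at 0.3 µM, against 379, 383, 338 and 304 at 100 µM. It rose narrowly (log2 0.47, SE 0.12, adjusted p = 0.046), and the call was lost in 5 of the 7 fits that left out a genotype (adjusted p up to 0.179) and with either RNA quality ratio in the fit. AT3G06450, a BOR family gene, did not pass the test (0.21, adjusted p = 0.349), and its ratios ran from -0.09 in the bor2 double to 0.57 in the nip6;1 double. SKU5, whose transcript carries an upstream AUG-stop (a start codon followed at once by a stop), read 3735, 4004, 3868 and 3947 at 0.3 µM, against 2561, 2391, 2834 and 2564 at 100 µM. It rose in the 4 mutants (0.59, SE 0.08, adjusted p = 0.00173) and in the intact genotypes (0.77, adjusted p = 0.00515).

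No photosynthesis gene rose. Of 14 tested nuclear genes 5 fell and none rose (35.7% called, median -0.50), and 13 of the 14 had a lower signal at low boron in all 4 pairs. PORB, which makes chlorophyllide in light, gave 241, 134, 118 and 334 units at 0.3 µM, against 421, 253, 241 and 611 at 100 µM (-0.91, SE 0.19, adjusted p = 0.0218). The levels overlapped across genotypes, while their ratios were close (-1.03 to -0.80). AT1G74470, the geranylgeranyl reductase of the chlorophyll pathway, fell in every pair by a like amount (-0.60, SE 0.09, adjusted p = 0.00426), and AT4G01150, ATPC1 and CHLM gave -0.57, -0.56 and -0.36.

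By genotype the median of the 14 genes was -0.30 in the single mutant and -0.73, -0.59 and -0.52 in the bor1, bor2 and nip6;1 doubles. In the intact genotypes it was -0.14 in wild type, -0.32 in bor1 and 0.66 in bor2. Transcripts encoded in the plastid gave 4 falls and no rise among 34 tested (11.8% called, median -0.30), of which rpl16 (-0.77, adjusted p = 0.0229) and psaB (-0.64, adjusted p = 0.0263) were the largest falls. The median of the 34 was -0.45 in the intact genotypes, where rpl16 also fell (-1.32, adjusted p = 0.0273). Without the single mutant, or without the bor1 or nip6;1 double, 1 nuclear gene was called, as with either RNA quality ratio in the fit, and 9 were called without bor2. No plastid transcript was called without the bor1 double or with the GAPDH ratio in the fit, 1 without the single mutant or the bor2 double, and 8 without bor2. The leaf markers RCA and LHCB4.1 did not pass the test (-0.16 and -0.46, adjusted p = 0.778 and 0.132), and fewer green cells and less such RNA per cell cannot be told apart in these bulk roots.

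Other lists held few or no calls. None of 9 tested calcium signalling genes and neither of 2 tested receptor-like kinases, FER (0.08) and THE1 (-0.32), passed the test, and of 11 autophagy genes (9.09% called) only APG8A fell (-0.37, adjusted p = 0.035). The APG8A call was lost without each of the 4 mutants in turn, and with either RNA quality ratio in the fit. Of 4 genes that respond to low oxygen none passed, though the responses were large and uneven. AT5G10040 gave log2 ratios of -0.20, -3.19, -5.37 and -1.63 in the 4 mutants, and -5.68 in wild type, -3.04 in bor1 and 0.00 in bor2. Its signal at 100 µM was 23.0 in the single mutant and 954 in the bor2 double.

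Some of the strongest responses belong to probe sets with no gene name in the annotation used. The rises were led by 260438_at, with 347, 404, 275 and 374 units at 0.3 µM, against 21.9, 30.4, 19.3 and 19.2 at 100 µM (log2 3.93, SE 0.20, adjusted p = 3.11e-06). It was followed by 262325_at (3.35, adjusted p = 0.00287), 266415_at (3.18, adjusted p = 9.74e-06) and 250199_at (3.06, adjusted p = 0.0007). The deepest fall of all was that of 266965_at, with 7.80, 2.90, 3.10 and 29.2 units at 0.3 µM, against 270, 184, 115 and 186 at 100 µM. Because 3 of its 4 low values lay under the floor of 20 units, its fitted response (-3.04, SE 0.21, adjusted p = 2.77e-05) understates the change. The next falls were 247591_at (-2.14, adjusted p = 0.00361), 250651_at (-1.48, adjusted p = 0.00153) and 249205_at (-1.40, adjusted p = 0.0223).

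Of 131 named calls, 61 were lost when at least 1 genotype was left out, 53 without the bor1 double, 51 without the nip6;1 double, 49 without the single mutant and 20 without the bor2 double. Among the genes whose signals are printed these were AT3G27400, AT4G24780, CCOAMT, PR-1-LIKE, ZIP9, WRKY6 and PORB. Calls given without signals were lost too, among them AT5G62420, APG8A, AT2G27500, AT5G04310 and EXLA1.

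The ratios of the 4 mutants were uneven, and which mutant was weakest depended on the probe sets considered. With 1 array per genotype and level, a difference between genotypes cannot be told apart from one between arrays. Over all tested probe sets the SD of the log2 ratios was 0.319 in the single mutant, 0.421 in the bor1 double, 0.384 in the bor2 double and 0.382 in the nip6;1 double. In the intact genotypes it was 0.287 in wild type, 0.301 in bor1 and 0.402 in bor2. The bor2 array at 0.3 µM stood apart from the rest of the series. Its median Spearman correlation with the other arrays was 0.975, against 0.981 to 0.986 for every other array. The part of that array in the bor2 values was not tested beyond the fits without bor2. The mean of the mutants exceeded that of the intact genotypes by 0.0465, which an exact two-sided permutation test over the 35 splits of 7 genotypes did not separate (p = 0.286). Across probe sets, which are not independent replicates, the ratios of the single mutant and the bor1 and nip6;1 doubles correlated with r of 0.590 to 0.638, while the bor2 double correlated with them at 0.290 to 0.361, as a description over 13648 probe sets with no test.

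Within the called probe sets the bor2 double most often had the smallest change. These are counts over probe sets read from the same arrays, with no test. Among the 389 called rises the bor2 double had the smallest ratio in 155, against 84 for the single mutant, 72 for the bor1 double and 78 for the nip6;1 double. Among the 314 falls that moved the same way it had the smallest change in 135, against 82, 40 and 57. The bor1 double had the largest change in 129 of those falls, and it shared the lead among the rises with the nip6;1 double (119 each). Of the 20 largest named rises and the 20 largest named falls, the bor2 double was weakest in 12 each. Leaving it out gave 719 calls, of which 506 were among the 706, while 299 were called without the single mutant, 273 without the bor1 double and 299 without the nip6;1 double.

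**Figure D3:**
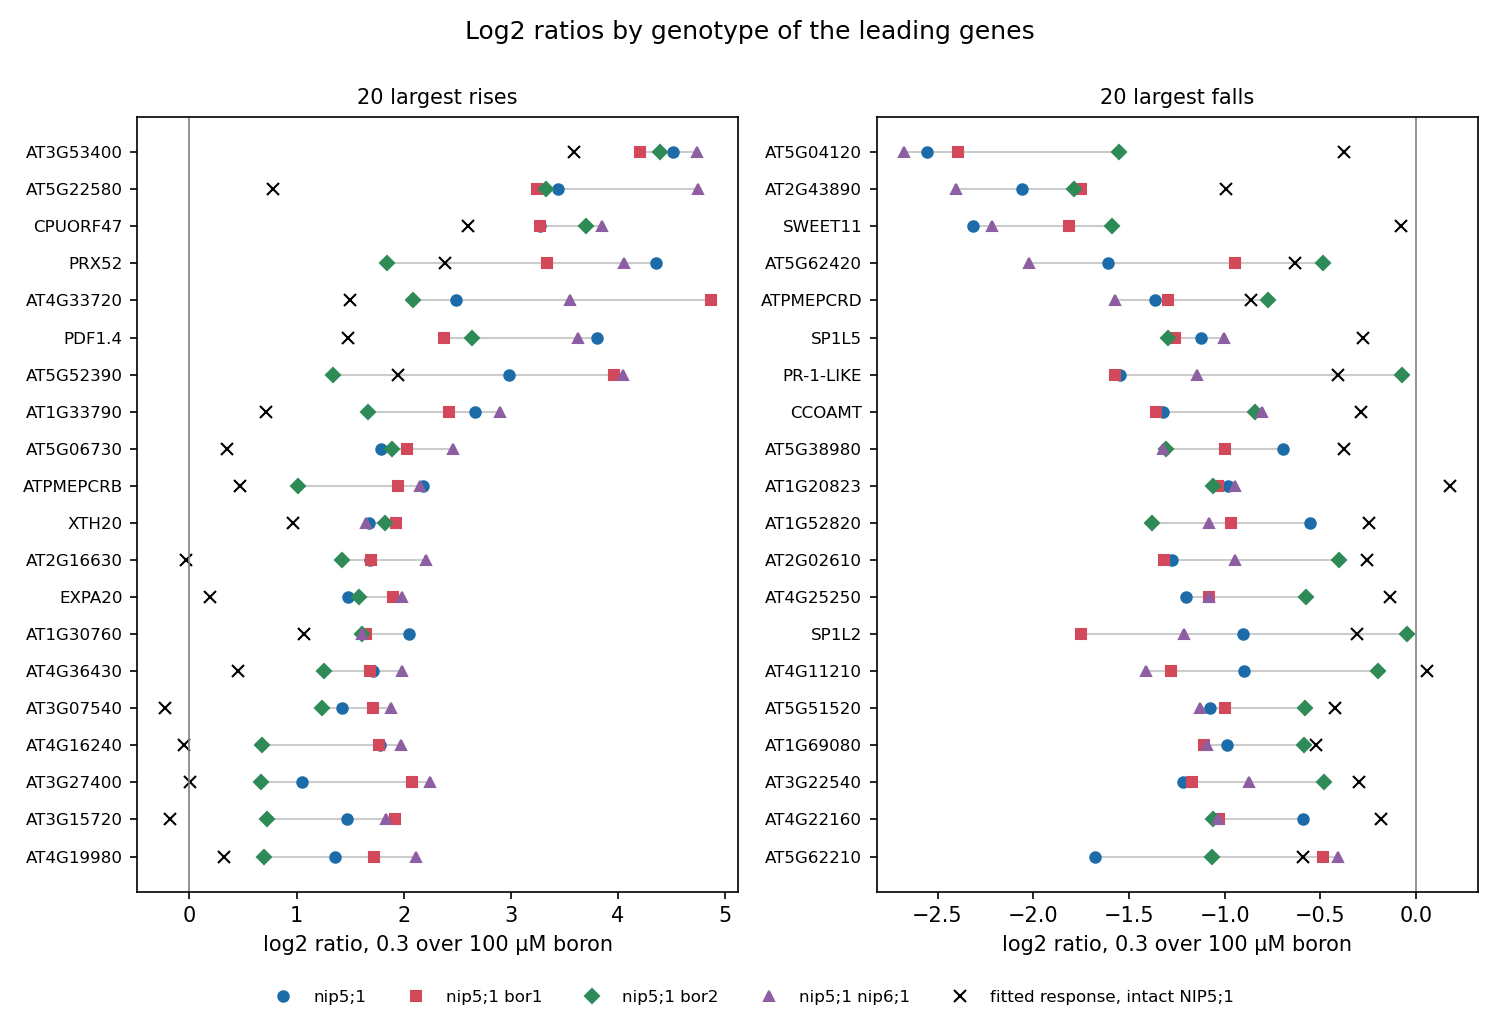
Log2 ratio of 0.3 over 100 µM boron (x axis) in each of the 4 mutants for the 20 largest named rises (left) and falls (right), with crosses for the fitted response of the 3 intact genotypes. The bor2 double (diamonds) lies nearest to 0 in 12 genes of each panel, and XTH20, SP1L5 and AT1G20823 show the narrowest spread.

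**Figure D4:**
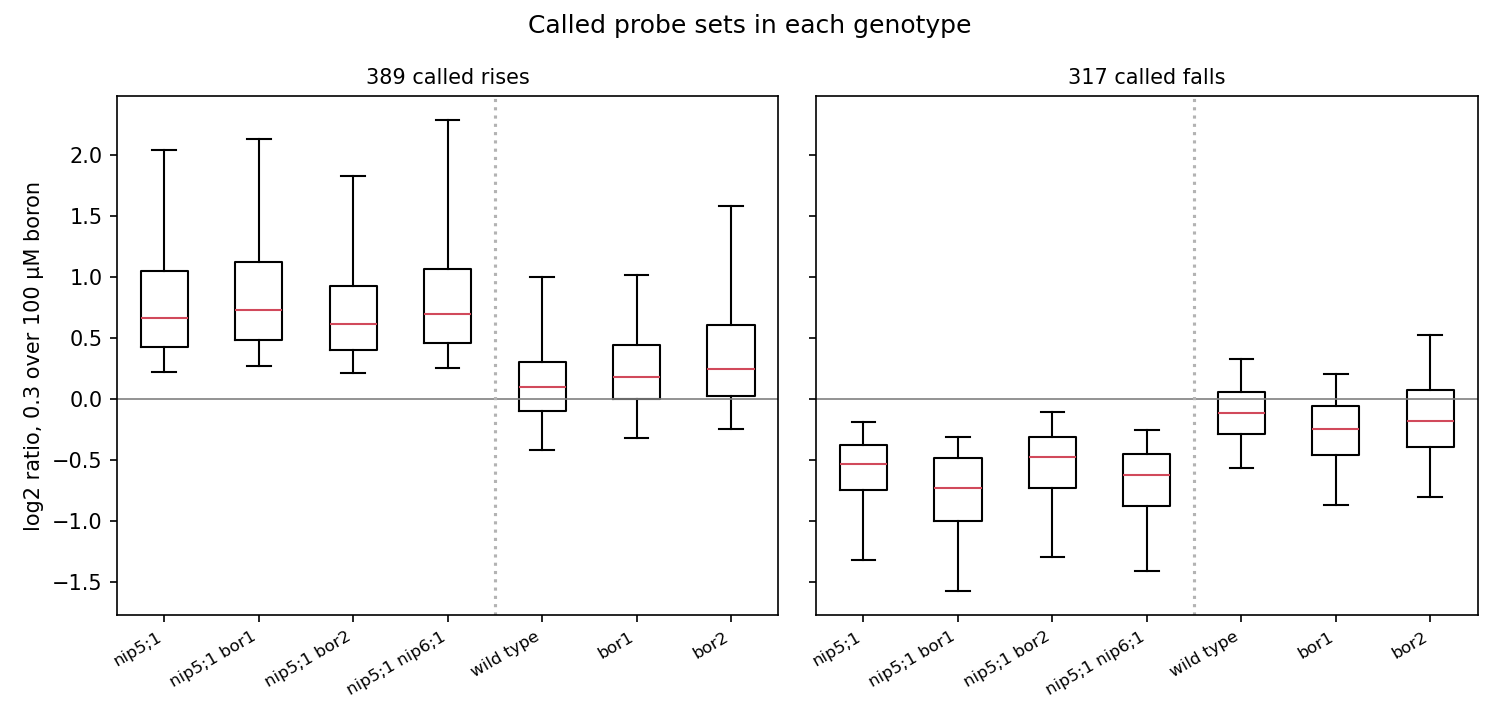
Log2 ratios of the 389 called rises (left) and 317 called falls (right) in each genotype, with the 4 mutants left of the dotted line and the intact genotypes right of it. Boxes span the quartiles with the median in red, and whiskers run from the 5th to the 95th percentile. The medians of the mutants lie between 0.62 and 0.73 for the rises and between -0.73 and -0.48 for the falls, and since the calls were made on these 4 genotypes their distance from 0 is no finding.

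In the intact genotypes the median of the 706 probe sets was 0.19 for the rises and -0.18 for the falls, and 557 had the same sign as in the mutants. Because the 706 were called on the mutants, their smaller median in the intact genotypes is a description and no finding. Only 16 of them passed the test in the intact genotypes, among 18 called there in all (0.132% of those tested), 14 higher (0.103%) and 4 lower (0.0293%). The difference between the responses of the classes was tested directly and was called for 15 probe sets (0.11%), 10 more positive (0.0733%) and 5 more negative (0.0366%) in the mutants, and 1028 (7.53%) had an unadjusted p under 0.05. Of these 15, 14 were among the 706. Leaving out a genotype moved that count widely, from 2 without the single mutant to 46 without the bor2 double, and it was 0 by limma when dim probe sets were kept, with 1465 of 22746 at an unadjusted p under 0.05.

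Of the named genes, 4 rose more in the mutants. AT5G22580 differed by 2.91 (adjusted p = 0.0438), with an intact response of 0.77 that did not pass the test (adjusted p = 0.585). AT3G07540 differed by 1.80 (adjusted p = 0.0174), AT5G06730 by 1.69 (adjusted p = 0.0241) and EXPA20 by 1.55 (adjusted p = 0.0335). Each of these was lost in at least 4 of the 7 fits that left out a genotype.

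The 2 named genes that fell more in the mutants were AT5G04120 (-1.92, adjusted p = 0.0148) and SWEET11 (-1.90, adjusted p = 0.00361). The SWEET11 difference was kept without each of the 7 genotypes in turn (adjusted p up to 0.0342) and lost when dim probe sets were kept or the genotype term was dropped (up to 0.827), while that of AT5G04120 was kept in 3 of the 7. SWEET11 read 1932, 1206 and 266 at 0.3 µM in wild type, bor1 and bor2, against 1891, 1282 and 301 at 100 µM, so that bor2 was low at both levels. The 2 unnamed leaders 260438_at and 266415_at differed by 2.61 and 2.52 (adjusted p = 0.00776 each). These differences were kept in 4 and 6 of the 7 fits that left out a genotype. For 260438_at, 2 of the 4 mutant arrays at sufficient boron lay at the floor. One unnamed probe set moved in opposite directions, and it was singled out after its values were seen: 246340_s_at fell in the mutants (-0.77, adjusted p = 0.0443) and rose in the intact genotypes (1.79, adjusted p = 0.00939), with a difference of -2.56 (adjusted p = 0.00776). Its signal in the mutants was 86.7, 52.8, 35.8 and 97.2 at 0.3 µM, against 144, 108, 64.0 and 135 at 100 µM, and in wild type, bor1 and bor2 it was 247, 240 and 266 at 0.3 µM, against 69.9, 102 and 53.3 at 100 µM. A probe set of this kind can bind transcripts of several related genes. The difference of 246340_s_at was kept in 5 of the 7 fits that left out a genotype.

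The other large difference was that of 254971_at, a probe set with no gene name here that was called in the intact genotypes and not in the mutants. No probe set is tied by name to the mutated genes, so whether this probe set reads NIP5;1 was not checked. Its signal in the mutants was 1303, 1141, 1655 and 789 at 0.3 µM, against 1261, 1175, 838 and 890 at 100 µM. In wild type, bor1 and bor2 it was 7624, 5493 and 4908 at 0.3 µM, against 875, 805 and 757 at 100 µM. The 2 levels overlapped in the mutants (log2 0.20, adjusted p = 0.561) and stood far apart in the intact genotypes (2.86, adjusted p = 4.10e-05). The difference was -2.66 (adjusted p = 0.00361), and it was kept without each of the 7 genotypes in turn and in 16 of the 17 alternatives in all.

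**Figure D5:**
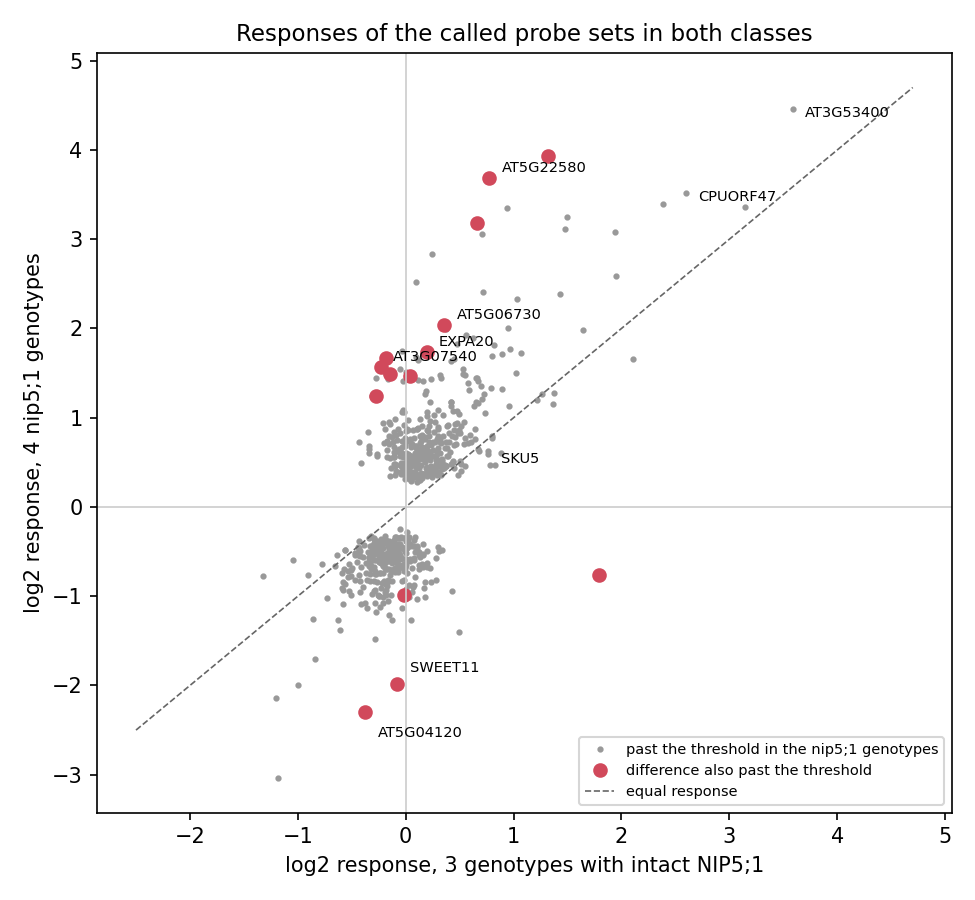
Fitted log2 response (0.3 minus 100 µM boron) of the 706 called probe sets in the 4 mutants (y axis) against that in the 3 intact genotypes (x axis), with a dashed line of equal response. Red points are the 14 whose difference also passed the test, named where the annotation gives a gene. AT3G53400 and CPUORF47 lie at the upper right, SWEET11 near an intact response of 0, and a single red point, 246340_s_at, lies at lower right.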

How the data were processed

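Transcripts of 14 root samples were measured on Affymetrix ATH1 arrays. The deposited values are linear intensities. Per the submitters' processing notes the authors used MAS5, with settings not stated in the labels. Every array had a 2% trimmed mean near 500 units. Of 22810 probe sets, 64 controls were left out. Arrays were scaled to a common trimmed mean, values under the 20th percentile (20 units) were set to it, log2 was taken, and the upper 60% by mean signal (13648 probe sets, mean of at least 113) were tested with limma 3.58.1 in R 4.3.3. The fit held genotype as a block and a boron term for each class (mutated or intact NIP5;1), with 5 residual degrees of freedom, an intensity trend, two-sided tests and p-values adjusted (Benjamini-Hochberg) over every probe set tested. It was tested on simulated data. Arrays have no read depth, and their number limits the precision. The class means share no arrays.

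Gene names came from the platform annotation, updated through RefSeq's gene table. Of all probe sets 13513 name 1 gene, 503 several and 8730 none here. The members, gene lists and tests were chosen with earlier results of these data known, and the families of wall enzymes, proteases, lipases and similar lists were drawn up from loci after calls had been seen. Named were the 20 strongest rises and the 20 strongest falls that were called and went the same way in all 4 pairs, up to 6 called members per list, all measured boron transport and AUG-stop genes, the 6 largest differences each way, the 4 widest and narrowest ranges, and the 4 largest unnamed rises and falls. A few genes outside this rule are given as list values. Promoter motifs were not run, since no sequences were used here. Python 3.11.15 with pandas 2.3.3, numpy 2.4.6, scipy 1.17.1 and matplotlib 3.10.9 made the tables and figures. Alternatives changed the filter, floor, normalization, block, variance prior, RNA quality terms and genotypes included.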

Additional observations from a re-analysis of the deposited data

Results flagged for a closer look

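Among 132 named probe sets, 8 had 1 of the 4 mutants far from the other 3 in log2 ratio of 0.3 over 100 µM boron, by a test of the gap over the range that chance passes in about 1 in 20 groups. A count of 8 among 132 is close to that rate, so the genes below are descriptions and no findings about a mutant. The nip6;1 double was highest for AT5G22580 (4.75), and the single mutant was highest for AT1G30760 (2.05) and nearest to 0 for AT4G22160 (-0.59). The bor2 double was nearest to 0 for AT4G16240 (0.68), EXPB1 (-0.26) and EXPA15 (-0.14), and highest for AT1G34510 (1.41). The bor1 double had the deepest fall of AT3G53100 (-1.02). AT4G16240 is read by a probe set that can bind several transcripts.

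A further 8 responses differed between the mutants and the intact genotypes by the test of the difference itself (limma, adjusted p 0.05). The difference, mutants minus intact, was 2.91 for AT5G22580, 1.69 for AT5G06730, 1.55 for EXPA20, 1.80 for AT3G07540, -1.92 for AT5G04120, -1.90 for SWEET11, 2.61 for 260438_at and 2.52 for 266415_at.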

How the results depend on the processing

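The main counts were 706 calls in the mutants (389 higher, 317 lower, 703 the same way in all pairs), 15 differences between the classes and 18 calls in the intact genotypes. With no filter on dim probe sets these were 183 (124, 59, 183), 0 (limma, 1465 at an unadjusted p under 0.05) and 5, and with the upper 40% of probe sets 423 (227, 196, 422) and 7 differences, where fewer probe sets were tested. With the GAPDH ratio as a covariate they were 228 (143, 85, 226) and 10 in the intact genotypes. With the actin ratio, added after the data were seen, they were 418 (136 lower, 394 the same way), 9 and 30. Without the genotype term, the pairing, there were 203 falls (531 calls). Leaving out 1 genotype at a time gave 273 to 946 calls, 183 to 481 higher, 90 to 465 lower, 273 to 929 the same way, 2 to 46 differences and 9 to 18 calls in the intact genotypes. The class difference in response size stayed positive (0.0251 to 0.0824 without a genotype) and was unseparated in the other settings with all 7 genotypes. With a genotype left out, the exact permutation test has too few splits to give a p under 0.05. Those fits therefore cannot decide whether the classes differ. Their lowest p by that test was 0.0667, without bor2. The mutants alone gave 772 calls, 631 of them among the 706. Quantile normalization, the other floors and the other priors gave 632 to 736. No named gene reversed in the alternatives that tested it, 18 in all, of which the upper 40% held 83 of the 132. Of 131 named calls, 32 were kept in all, 70 without each genotype in turn, 95 were lost with no filter, 66 with the GAPDH ratio and 42 with the actin ratio. The causes were not tested beyond the smaller or larger number of tests and genotypes. Signals near the floor understate responses.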
